A study of Mus musculus with 8 samples.

Results

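Apoc1 and a set of apolipoprotein and cholesterol efflux genes were followed in endometrium dissected by laser capture from WT and Thra1PV/+ mice. The set holds 10 of the 52325 genes in the deposited count table: Apoc1, Apoe, Apod, Apob, Lpl, Lcat, Pltp, Abca1, Abcg1 and Lrp1, each found by the Ensembl identifier that maps to its symbol. Apoc1 was chosen by its measured counts, which were higher in Thra1PV/+ libraries with little spread, so its difference between genotypes is given as a description, without a test. The other 9 were listed with it as its genomic neighbour Apoe and as genes of lipid transfer. Of the 10, 9 were among the 18174 genes that passed the filter on low counts, and Apob did not pass.

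RNA was sequenced from the endometrium of 4 WT and 4 Thra1PV/+ female mice, both groups synchronized to metestrus. Thra1PV/+ mice carry the dominant negative PV mutation in 1 of the alleles of Thra, the gene for thyroid hormone receptor alpha, in the germline and so in every cell type. The tissue is labelled uterus, and the ages and strain of these 8 mice are not given in the sources used here. No source states that the libraries of a genotype came from separate litters or days, so p-values measure the spread between these libraries.

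Apolipoproteins are the protein part of lipoprotein particles, which carry cholesterol and triglyceride between tissues. Cells export cholesterol through ABC transporters to apolipoprotein acceptors, enzymes and transfer proteins remodel the particles, and endocytic receptors take them up again. In many tissues the macrophage is a main source of Apoe, Apoc1, Abca1 and Abcg1 transcripts, and the liver X receptors, activated by oxysterols, raise all of these. Liver X receptors and thyroid hormone receptors both bind, with a retinoid X receptor, to direct repeats of AGGTCA spaced by 4 bases.

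In the mouse genome (GRCm38), Apoc1 lies on the minus strand at chr7:19689481-19692660 and Apoe on the same strand at chr7:19696109-19699188, with 3448 bases between them. The other members are on other chromosomes: Pltp at chr2:164839518-164857711, Abca1 at chr4:53030787-53159895, Lpl at chr8:68880491-68907448, Lcat at chr8:105939551-105943382, Lrp1 at chr10:127538161-127621148, Apob at chr12:7977648-8016835, Apod at chr16:31296192-31314808 and Abcg1 at chr17:31057675-31117988. RefSeq promoter windows (GRCm38.p6, 250 bases before to 50 after the start of the gene) were matched by symbol for 7 of the 10, all but Apoc1, Lpl and Abcg1. The 250 bases before the start are shown for Apoe, the nearest member to Apoc1, and for Abca1, the efflux gene best known as a liver X receptor target, both 5′ to 3′ on the strand of the gene. Capitals in the Abca1 sequence mark a match, on the opposite strand, to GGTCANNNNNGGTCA with at most 1 letter different, from 67 to 53 bases before the start, and no capitals occur in the Apoe sequence.
Apoe, chr7:19699189-19699438, minus strand: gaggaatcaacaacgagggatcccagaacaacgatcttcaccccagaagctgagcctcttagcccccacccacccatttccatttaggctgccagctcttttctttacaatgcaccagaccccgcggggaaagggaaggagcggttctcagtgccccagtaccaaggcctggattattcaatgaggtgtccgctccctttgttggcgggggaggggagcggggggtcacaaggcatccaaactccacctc
Abca1, chr4:53159896-53160145, minus strand: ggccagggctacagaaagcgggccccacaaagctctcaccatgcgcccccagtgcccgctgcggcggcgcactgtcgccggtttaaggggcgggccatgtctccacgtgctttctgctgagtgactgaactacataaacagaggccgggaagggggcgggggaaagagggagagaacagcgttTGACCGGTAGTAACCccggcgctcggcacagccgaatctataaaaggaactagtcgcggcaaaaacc

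Motifs were searched in all 300 bases of each window on both strands. The letters AGGTCA were in 0 of the 7 windows and in 16.3% of 32851 mouse windows. The full repeat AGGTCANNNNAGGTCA was in 0 of the 7 windows and in 0.0152% of all windows, and the shorter form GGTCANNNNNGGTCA, which overlaps it, in 0 of the 7 and in 0.0761%. When 1 letter of the shorter form was allowed to differ, a setting chosen after the Abca1 window had been read, Abca1 was the 1 match among the 7 windows, and 1.90% of all windows matched. TATAAA was found before the start in the windows of Apob and Abca1 and after the start in that of Pltp, and it was in 13.6% of all windows. A match is a run of letters and not a measured binding site, and the absence of a match holds only for these windows.

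The 8 libraries held 48791883 to 59819099 counts each. Thra was at 45.8 to 127 CPM (counts scaled to the size of the library after TMM normalization) in Thra1PV/+ and at 47.4 to 110 CPM in WT libraries, and its counts do not tell the mutant from the normal transcript. All 12 stroma markers and all 12 simple epithelium markers used to check the tissue passed the filter, but their levels differed between libraries. Simple epithelium markers summed to 7326 to 18977 CPM in Thra1PV/+ libraries and to 6043, 4790, 27057 and 21450 CPM in WT libraries 1 to 4. Stroma markers summed to 805 to 7174 CPM in Thra1PV/+ libraries and to 6698, 6929, 2380 and 2609 CPM in WT libraries 1 to 4. WT library 1 stood apart with a summed level of 13143 CPM over 8 smooth muscle markers, against 573 to 1146 CPM in the other WT and 146 to 687 CPM in the Thra1PV/+ libraries. The median log2 fold change of these 8 was -3.96, and edgeR and DESeq2 each called 0 of them, while 8 had an unadjusted p-value below 0.05. Over 12 squamous epithelium markers, 8 were called higher in Thra1PV/+ libraries, and their summed level was 3019 to 4975 CPM in Thra1PV/+ and 55.9 to 183 CPM in WT libraries. With the thresholds used here (at least a 2-fold difference, adjusted p at most 0.1), edgeR's quasi-likelihood test over all 18174 genes called 180 (0.99%), 168 higher (0.924%) and 12 lower (0.066%) in Thra1PV/+ endometrium. Of the 8 tested members other than Apoc1 it called 0.

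Apoc1 encodes a small apolipoprotein that inhibits lipoprotein lipase and the uptake of remnant particles. Its counts in Thra1PV/+ libraries 1 to 4 were 319, 286, 244 and 334, and in WT libraries 1 to 4 they were 14, 16, 22 and 16. This corresponded to 5.86, 5.80, 4.99 and 5.85 CPM in Thra1PV/+ and to 0.267, 0.289, 0.438 and 0.335 CPM in WT libraries. Every Thra1PV/+ library was therefore above every WT library, and within each genotype the values lay close together. The highest Thra1PV/+ library exceeded the lowest 1.17-fold, and the highest WT library exceeded the lowest 1.64-fold. The means were 5.62 ± 0.426 CPM (SD, n = 4) in Thra1PV/+ and 0.332 ± 0.0758 CPM (SD, n = 4) in WT endometrium, or 4.07 ± 0.29 (SE) as a log2 fold change, which is 16.8-fold. These are the values that Apoc1 was chosen for. Libraries of the genotypes did not overlap for 6.04% of all tested genes in either direction and for 3.55% with the Thra1PV/+ libraries higher. In a bulk sample, fewer cells of a type and less RNA per cell cannot be told apart.

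**Figure D1:**
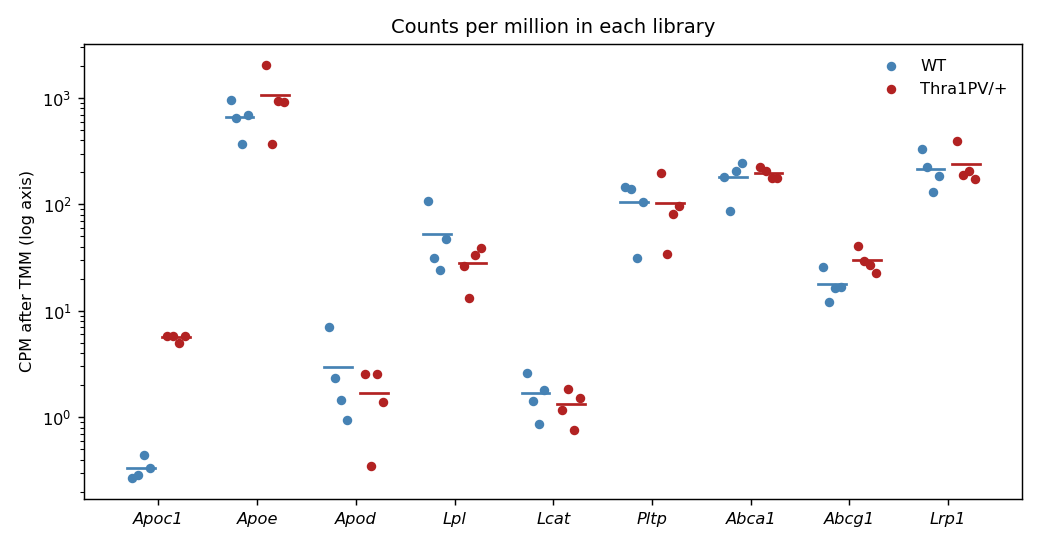
CPM after TMM normalization (log axis) of 9 genes in each library, with WT in blue, Thra1PV/+ in red and a line at each mean of 4 libraries. Apob is left out because it is at 0 in several libraries. Apoc1 is the gene whose genotypes do not overlap, at 4.99 to 5.86 CPM in Thra1PV/+ and 0.267 to 0.438 CPM in WT libraries.

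Apoe encodes the ligand by which remnant particles reach endocytic lipoprotein receptors, and it is also a major acceptor of cholesterol released from macrophages. In Thra1PV/+ libraries 1 to 4 Apoe was at 2060, 368, 939 and 919 CPM, and in WT libraries 1 to 4 at 956, 646, 369 and 695 CPM. Thra1PV/+ library 1 was the highest of all, Thra1PV/+ library 2 was as low as WT library 3, and the genotypes overlapped. Thra1PV/+ over WT, Apoe had a log2 fold change of 0.68 ± 0.50 (SE; edgeR adjusted p = 0.718), and without Thra1PV/+ library 1 it was 0.20. By the mean log2 CPM over the 8 libraries of both genotypes, Apoe was above 99.3% of the tested genes and Apoc1 above 23.2%. For Apoc1 this mean of 0.52 lay between the genotypes, above every WT library and below every Thra1PV/+ library.

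Because the genes are adjacent, the Apoc1 count was also set against the Apoe count of the same library. For every 1000 Apoe counts there were 2.84, 15.8, 5.31 and 6.36 Apoc1 counts in Thra1PV/+ libraries 1 to 4, and 0.279, 0.447, 1.19 and 0.482 in WT libraries 1 to 4. The ratio was higher in every Thra1PV/+ library than in any WT library. Within each genotype it was at its highest in the library with the least Apoe. Apoe varied 5.60-fold between Thra1PV/+ libraries and 2.59-fold between WT libraries, more than Apoc1 did in either genotype. The ratio holds the Apoc1 values that the gene was chosen for, and it is given without a test.

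Of the 7 other genes listed around this pair on chromosome 7, edgeR called 0, against 0.99% of all tested genes. An unadjusted p-value below 0.05 in edgeR was found for 1 of them, against 9.77% of all tested genes. DESeq2 called that 1 gene, against 2.64% of the 29984 genes it tested without the filter on low counts. That gene was Apoc2, the activator of lipoprotein lipase, at chr7:19671579-19677941. It was at 6.57, 1.68, 4.90 and 4.71 CPM in Thra1PV/+ libraries and at 2.12, 0.704, 1.15 and 1.84 CPM in WT libraries. The genotypes overlapped through Thra1PV/+ library 2, which was below WT libraries 1 and 4. The log2 fold change of Apoc2 was 1.62 ± 0.50 (SE), with an adjusted p of 0.337 by edgeR and 0.0389 by DESeq2, and a range of 0.0389 to 0.694 over 18 alternatives. The log2 fold changes of the other 6, Apoc4, Clptm1, Relb, Tomm40, Nectin2 and Bcam, ran from -0.13 for Relb to 0.15 for Bcam. Apoc4, between Apoc2 and Apoc1, was at 1.01 to 2.54 CPM in Thra1PV/+ and 1.30 to 2.44 CPM in WT libraries.

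**Figure D2:**
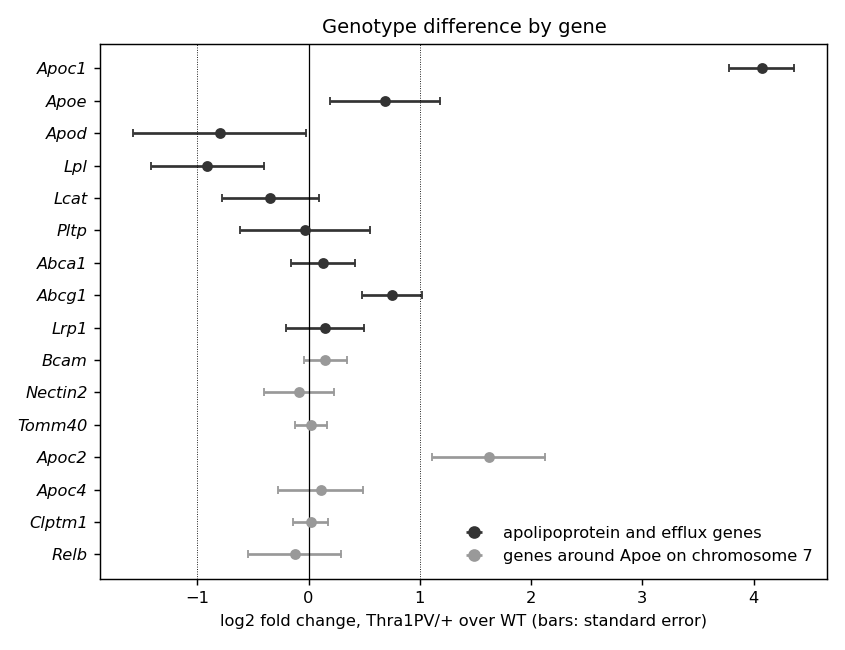
Log2 fold change, Thra1PV/+ over WT, for the 9 tested apolipoprotein and efflux genes (black) and for 7 genes around Apoe on chromosome 7 (grey), with bars for the standard error and dotted lines at a 2-fold change. Apoc1 is at 4.07 and Apoc2 at 1.62, and the remaining genes lie between -0.91 and 0.75.

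Apod encodes a lipocalin that binds small lipids and is not related in sequence to Apoe and Apoc1. It was at 2.53, 0.345, 2.53 and 1.40 CPM in Thra1PV/+ libraries 1 to 4 and at 7.10, 2.35, 1.45 and 0.942 CPM in WT libraries 1 to 4. WT library 1, the one with the most smooth muscle marker counts, was the highest, Thra1PV/+ library 2 was the lowest, and the rest overlapped. For Apod the log2 fold change came to -0.80 ± 0.78 (SE; edgeR adjusted p = 0.804) and turned to 0.15 without WT library 1. The part of smooth muscle in this difference was not tested.

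Apob is the large structural protein of chylomicrons and very low density lipoproteins, made chiefly in intestine and liver. It had 55, 0, 0 and 0 counts in Thra1PV/+ libraries 1 to 4 and 6, 62, 0 and 5 counts in WT libraries 1 to 4. A pair of libraries, 1 of each genotype, held nearly all of its counts, and no fold change was computed. A count of 0 allows up to 3 counts. Summed over 8 hepatocyte markers, the libraries held 0.280 to 0.873 CPM in Thra1PV/+ and 0.628 to 3.47 CPM in WT endometrium. Of these markers, Fga, Fgb, Cyp3a11 and Ahsg were at or under 3 counts in every library, and 1 of the 8 passed the filter. WT library 2, the higher of the pair in Apob, had the highest sum. Thra1PV/+ library 1, the other of the pair, was at 0.863 CPM, below library 2 at 0.873 CPM, which had 0 Apob counts.

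Lpl encodes lipoprotein lipase, which releases fatty acids from triglyceride-rich particles at the vessel wall and is held there by heparan sulfate and Gpihbp1. Its level was 26.2, 13.2, 33.8 and 39.1 CPM in Thra1PV/+ libraries 1 to 4 and 107, 31.5, 24.1 and 47.8 CPM in WT libraries 1 to 4. WT library 1 lay far above the rest, and the other 7 libraries overlapped. Lpl had a log2 fold change of -0.91 ± 0.51 (SE; edgeR adjusted p = 0.629) and one of -0.26 without WT library 1. Adipocyte markers summed to 22.5 to 40.3 CPM in Thra1PV/+ and 35.5 to 117 CPM in WT libraries over 8 genes, most of it from Lipe, while Lep was at 0 in every library.

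Lcat, the enzyme that esterifies cholesterol on high density lipoproteins, was among the least abundant members. It was at 1.18, 1.83, 0.756 and 1.52 CPM in Thra1PV/+ libraries and at 2.63, 1.41, 0.855 and 1.80 CPM in WT libraries. The genotypes overlapped, with WT library 1 the highest. Its log2 fold change of -0.34 ± 0.44 (SE; edgeR adjusted p = 0.860) became 0.01 without that library.

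Pltp, the protein that transfers phospholipid onto high density lipoproteins, had nearly equal means, 103 ± 69.2 CPM (SD, n = 4) in Thra1PV/+ and 105 ± 52.4 CPM (SD, n = 4) in WT endometrium. The single values were 199, 34.5, 81.7 and 96.8 CPM in Thra1PV/+ libraries and 146, 139, 31.3 and 105 CPM in WT libraries. As for Apoe, the highest library was Thra1PV/+ library 1 and the lowest were Thra1PV/+ library 2 and WT library 3. Pltp had a log2 fold change of -0.03 ± 0.58 (SE; edgeR adjusted p = 0.992), and it was -0.52 without Thra1PV/+ library 1 and 0.26 without Thra1PV/+ library 2.

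Abca1 and Abcg1 are the transporters that move cholesterol out of the cell, Abca1 to lipid-poor apolipoproteins and Abcg1 to formed high density particles. Abca1 was at 223, 208, 178 and 179 CPM in Thra1PV/+ libraries 1 to 4 and at 181, 86.0, 208 and 244 CPM in WT libraries 1 to 4. The 4 Thra1PV/+ libraries lay inside the range of the WT libraries, and WT library 2 was the lowest. The log2 fold change of Abca1 was 0.13 ± 0.29 (SE; edgeR adjusted p = 0.930) and turned to -0.07 without WT library 2.

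Abcg1 was at 40.8, 29.5, 27.0 and 22.5 CPM in Thra1PV/+ libraries and at 25.9, 12.1, 16.4 and 16.8 CPM in WT libraries. Only WT library 1 reached into the Thra1PV/+ range, where it was above Thra1PV/+ library 4. The log2 fold change of Abcg1 was 0.75 ± 0.27 (SE), with an unadjusted p-value of 0.0231 and an adjusted p of 0.402 in edgeR's quasi-likelihood test. Its adjusted p ran from 0.191 to 0.719 over 18 alternatives, and Abcg1 was called in 0 of them. Among the 8 members tested besides Apoc1 it was the only one with an unadjusted p-value below 0.05, a level that 9.77% of all tested genes reached.

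Lrp1 is a large endocytic receptor that takes up Apoe-bearing remnants. It was at 392, 191, 205 and 174 CPM in Thra1PV/+ libraries and at 332, 222, 131 and 184 CPM in WT libraries. Library 1 was the highest in each genotype, and the genotypes overlapped. Lrp1 had a log2 fold change of 0.15 ± 0.35 (SE; edgeR adjusted p = 0.937) and one of -0.15 without Thra1PV/+ library 1.

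Over the 8 members tested besides Apoc1, 4 log2 fold changes were above 0 and 4 below, with a median of 0.05 against -0.05 over all tested genes. EdgeR's quasi-likelihood test called 0 of the 8, against 0.99% of all tested genes, and DESeq2 also called 0, against 2.64% of the 29984 genes it tested. The filter on low counts was not applied before DESeq2, so the 2 shares are over different sets of genes.

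Levels of different genes were compared per transcript length with the deposited TPM values. By the WT mean, Apoe was at 856 ± 336 TPM (SD, n = 4), followed by Lrp1 at 112 ± 49.2 TPM and Pltp at 88.8 ± 46.2 TPM. Abca1 at 20.7 ± 7.68 TPM and Lpl at 14.3 ± 9.25 TPM came next, and Abcg1, at 6.60 ± 2.09 TPM, followed. Apod was at 3.79 ± 2.85 TPM, Lcat at 1.77 ± 0.678 TPM, Apoc1 at 1.57 ± 0.517 TPM and Apob at 0.0902 ± 0.139 TPM. Apoe, above Lrp1, and Apob, below Apoc1, were the 2 members whose range over the 4 WT libraries did not overlap that of their neighbour in this order. The ranges of all other neighbouring pairs overlapped, although within each WT library Lrp1 was above Pltp, Pltp above Abca1, Lpl above Abcg1 and Abcg1 above Apod. In Thra1PV/+ endometrium Apoc1 was at 24.0 ± 2.31 TPM, overlapping with Abca1 at 23.7 ± 3.22 TPM. The Apoe transcript was thus at a higher TPM than that of every other member in each of the 8 libraries.

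**Figure D3:**
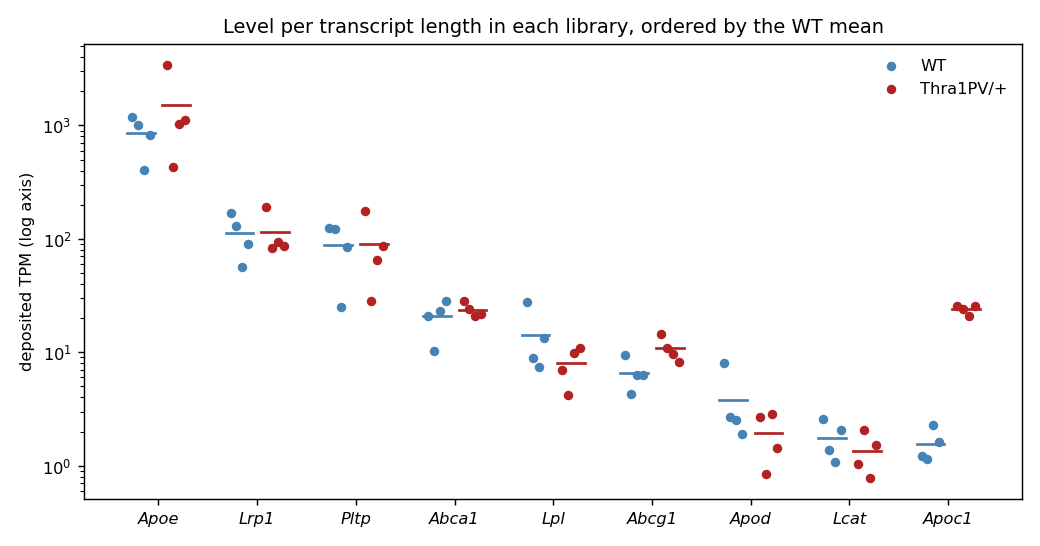
Deposited TPM (log axis), a level per transcript length, of 9 genes in each library, ordered by the WT mean. Lines mark the means of 4 libraries, WT in blue and Thra1PV/+ in red. Apoc1 is the last of the 9 in WT, at 1.57 TPM, and at the level of Abca1 in Thra1PV/+, at 24.0 TPM.

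For each of the 8 tested members besides Apoc1, the ratio of the highest to the lowest library within either genotype exceeded the fold difference between the genotypes. Thra1PV/+ library 1 was the highest of its genotype for Apoe, Pltp, Abca1, Abcg1 and Lrp1 and level with library 3 for Apod. It was also the highest for the summed macrophage (1627 CPM against 908 to 1173 CPM in the others), stroma (7174 against 805 to 2107 CPM) and endothelial (258 against 65.2 to 134 CPM) markers. Thra1PV/+ library 2 was the lowest of its genotype for Apoe, Apod, Lpl and Pltp and for the stroma and endothelial sums. Among WT libraries, library 1 was the highest for Apoe, Apod, Lpl, Lcat, Pltp, Abcg1 and Lrp1, and library 3 was the lowest for Apoe, Lpl, Lcat, Pltp and Lrp1. The WT endothelial sum was also highest in library 1 and lowest in library 3. The WT stroma sum was highest in library 2 and lowest in library 3, and the WT macrophage sum was highest in library 4 and lowest in library 2.

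In Thra1PV/+ libraries Apoc1 was also highest in library 1, at 5.86 CPM, but library 4 at 5.85 CPM and library 2 at 5.80 CPM lay close to it. Its lowest value was in library 3, which held the highest squamous marker sum of the 4, and in WT libraries its highest value was in library 3, which also held the highest squamous sum. Between genotypes the squamous marker sum was separated in the same direction as Apoc1, and its part in the Apoc1 difference was not tested. None of the 15 tested macrophage markers was called by edgeR at either threshold (0 adjusted, 0 at an unadjusted p-value below 0.05). DESeq2 also called 0. Their sum overlapped at 908 to 1627 CPM in Thra1PV/+ and 698 to 1063 CPM in WT libraries. In Thra1PV/+ library 2 most of the sum was Cd14, at 575 CPM, its highest level in any library. Adgre1, Csf1r, C1qa and Lyz2 were at their lowest of the 8 libraries there, at 5.80, 21.4, 48.4 and 76.5 CPM. Of the other tested markers, only Cd68, Fcgr1, Siglec1 and Cd5l were not at their lowest in that library. The log2 fold changes of the tested macrophage markers ran from -0.85 for Mrc1 to 0.65 for Fcgr1, with a median of 0.24. Among them, the complement gene C1qa had a mean of 125 CPM in Thra1PV/+ and 111 CPM in WT endometrium. No macrophage marker was at or under 3 counts in all libraries, and the part of macrophages in the values of Apoe and Apoc1 was not tested.

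**Figure D4:**
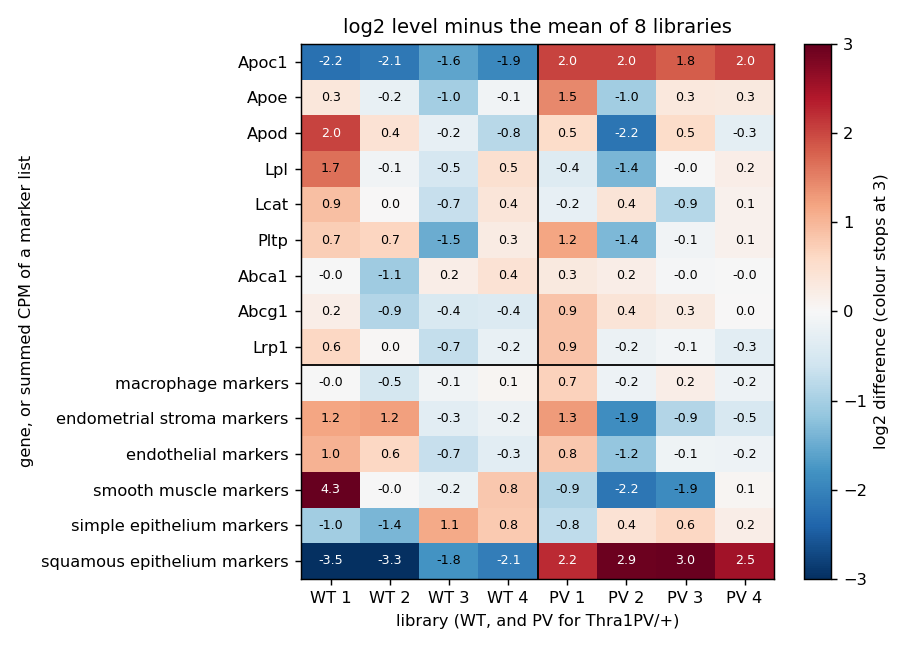
Log2 level in each library minus the mean of the 8 libraries, for 9 genes (log2 CPM) and, under the horizontal line, for the summed CPM of 6 marker lists. Columns are WT 1 to 4 and Thra1PV/+ 1 to 4 (PV), and the colour stops at a difference of 3. Apoc1 and the squamous markers separate by genotype, while Apoe, Pltp and Lrp1 are high in library 1 of each genotype.

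The genes most like Apoc1 over the 8 libraries were found among 12132 genes whose log2 CPM averaged 2 or more, by the root mean square distance between log2 CPM values centred on each gene's mean. Among the 6 nearest were Ces2g (distance 0.54), Ptges (0.59), Rhov (0.67), Grhl1 (0.70) and Lgals12 (0.72). Means in Thra1PV/+ and WT endometrium were 41.4 and 5.33 CPM for Ces2g, a carboxylesterase, and 88.5 and 9.71 CPM for Ptges, the prostaglandin E synthase. This measure takes in the genotype difference that Apoc1 was chosen for, so the 6 are a description. None of the other members was among them, which was fixed in advance. The log2 fold changes of those tested were at most 0.75, too far from that of Apoc1 to come near it. Apod and Lcat, at a mean log2 CPM of 0.81 and 0.52, were also under the limit of 2.

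Beyond these members, 105 genes of lipoprotein and sterol handling were read from the same fit, of which 89 were tested. Of these, 2 were called, both higher in Thra1PV/+ endometrium, 87 were not, and 10 had an unadjusted p-value below 0.05, 7 higher and 3 lower, against 0.99% called and 9.77% below 0.05 over all tested genes. The median log2 fold change of the 89 was -0.09, against -0.05 over all tested genes. Called genes numbered 0 of 8 among other apolipoproteins, 1 of 21 among lipoprotein receptors and 1 of 13 among genes of lipase regulation, and they numbered 0 of 15 in the liver X receptor pathway, 0 of 12 among sterol transporters and 0 of 21 in sterol storage and trafficking. DESeq2 called 1 gene among other apolipoproteins, Apoc2, against 2.64% of the 29984 genes it tested. It called 0 in each of the last 3 lists, where 2, 0 and 1 genes had an unadjusted p-value below 0.05 in edgeR.

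Lrp4, a receptor related to Lrp1 that acts chiefly in agrin and Wnt signalling, was at 15.2, 22.9, 16.5 and 11.8 CPM in Thra1PV/+ libraries and at 7.19, 3.61, 2.77 and 4.65 CPM in WT libraries. All 4 Thra1PV/+ libraries were above all 4 WT libraries. Its log2 fold change was 1.86 ± 0.35 (SE; edgeR adjusted p = 0.0698). With single libraries left out the log2 fold change was 1.67 to 2.22 and Lrp4 was called only without WT library 1 (adjusted p = 0.0348). Its adjusted p was 0.124, 0.193, 0.213 and 0.105 without Thra1PV/+ libraries 1 to 4, and 0.168, 0.125 and 0.186 without WT libraries 2 to 4.

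Sdc1, the heparan sulfate proteoglycan syndecan-1 of epithelial cells, which can bind lipoprotein lipase and remnants, was at 347, 569, 480 and 334 CPM in Thra1PV/+ libraries and at 130, 88.2, 120 and 231 CPM in WT libraries. Again no WT library reached the lowest Thra1PV/+ library. Sdc1 had a log2 fold change of 1.60 ± 0.32 (SE; edgeR adjusted p = 0.0944). With single libraries left out it was 1.44 to 1.94, and Sdc1 was called only without WT library 4 (adjusted p = 0.0511). Its adjusted p was 0.130, 0.245, 0.284 and 0.151 without Thra1PV/+ libraries 1 to 4, and 0.199, 0.168 and 0.197 without WT libraries 1 to 3. With a replicate block neither gene was called, with adjusted p = 0.212 for Lrp4 and 0.282 for Sdc1. Sdc1 is also made by stratified squamous epithelium, whose markers separated the genotypes as given above, and their part in the Sdc1 difference was not tested.

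No gene of the liver X receptor pathway, which governs Abca1 and Abcg1, was called. The liver X receptors Nr1h3 and Nr1h2 had log2 fold changes of -0.23 (adjusted p = 0.901) and 0.02 (adjusted p = 0.984), and Srebf1, a liver X receptor target that drives fatty acid synthesis, one of 0.15 (adjusted p = 0.786), all from edgeR's quasi-likelihood test. Their retinoid X receptor partner Rxra was at 113, 130, 146 and 117 CPM in Thra1PV/+ libraries and at 77.7, 82.2, 112 and 97.9 CPM in WT libraries, a log2 fold change of 0.45 ± 0.15 (SE), with an unadjusted p-value of 0.0180 and an adjusted p of 0.373 by edgeR. Its lowest Thra1PV/+ library was just above its highest WT library. Rxra was named after its values were seen, and Nr1h3, Nr1h2 and Srebf1 also fall outside the naming rule. In all, libraries of the genotypes did not overlap for 5 of the 89 pathway genes, against 6.04% of all tested genes: Lrp4, Sdc1, Rxra, Olr1 and Sel1l.

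Other genes with an unadjusted p-value below 0.05 in edgeR's quasi-likelihood test were named after their values were seen, except Scd2, which the rule named by abundance. The high density lipoprotein receptor Scarb1 was at 34.5, 15.2, 24.8 and 23.3 CPM in Thra1PV/+ libraries and at 36.1, 42.8, 31.2 and 35.9 CPM in WT libraries, a log2 fold change of -0.58 (adjusted p = 0.487). The lipoprotein receptor Vldlr had a log2 fold change of -0.92 (adjusted p = 0.435), and Stard5, a sterol carrier, one of -0.87 (adjusted p = 0.456), which was -0.55 without WT library 3. The scavenger receptor Olr1 had one of 1.996 (adjusted p = 0.505) at no more than 1.16 CPM in any library, Sel1l, an adaptor of lipase maturation, one of 0.40 (adjusted p = 0.355), and the desaturase Scd2 one of 0.54 (adjusted p = 0.472). None of these passed the test.

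Genes named by abundance were not called, which the naming rule fixed in advance, because it took the called genes of each list first. Among other apolipoproteins, Clu had a log2 fold change of -0.92 (edgeR adjusted p = 0.680), with 120 to 1231 CPM over WT and 235 to 352 CPM over Thra1PV/+ libraries, and the mitochondrial Apool and Apoo had -0.15 and -0.01. Without WT library 4 the log2 fold change of Clu was -0.19. In the other lists, the log2 fold changes were 0.02 for Lrp10, 0.16 for Lsr, 0.11 for Sdc4, -0.61 for Hspg2, 0.21 for Arl4c, -0.28 for Smpdl3a, 0.30 for Abca2, -0.24 for Abca3, 0.23 for Abca7, 0.06 for Npc2, 0.26 for Gramd1a and -0.14 for Scp2. Without WT library 1 that of Hspg2 was -0.15.

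**Figure D5:**
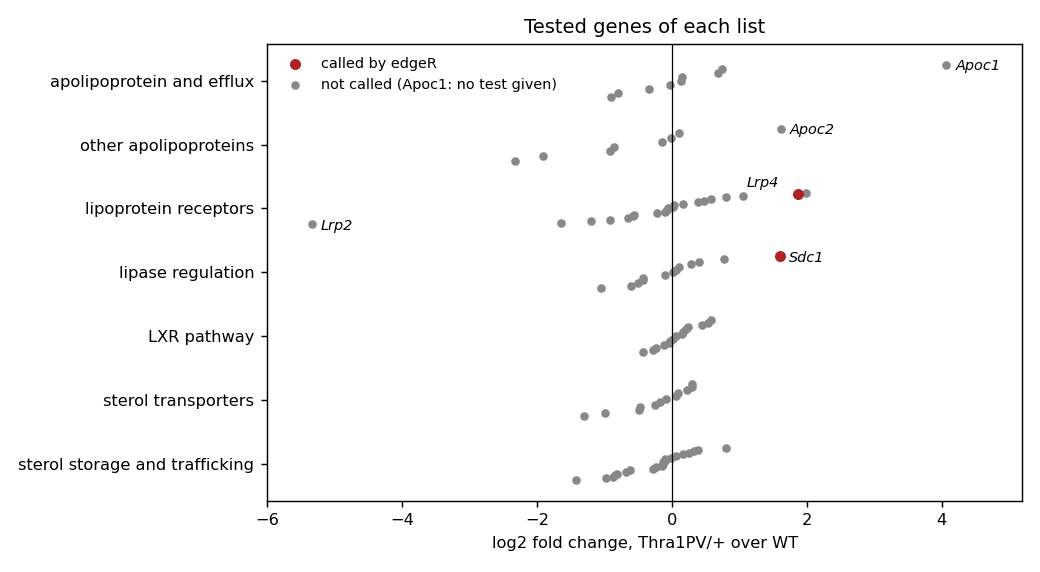
Log2 fold change, Thra1PV/+ over WT, of every tested gene of the apolipoprotein and efflux set and of 6 pathway lists, with called genes in red. Lrp4 at 1.86 and Sdc1 at 1.60 are called, Apoc1 at 4.07 is shown with no test, and Lrp2 at -5.34 is not called.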

How the data were processed

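Endometrium of 4 WT and 4 Thra1PV/+ mice, isolated by laser capture, was profiled by RNA-seq. The authors made stranded libraries from mRNA, read them from both ends, trimmed with Trimmomatic and quantified with salmon for mouse mm10. Versions and the annotation release are not given in the sources used here. Deposited were estimated counts, not normalized, and a TPM table. At each rank, the deposited TPM values of the 8 libraries lay within 0.291 TPM of each other, as after quantile normalization. 1 further TPM column, of no sample, held negative values and division errors and was not used.

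Estimated counts were rounded. Genes passed filterByExpr (minimum count 10, minimum total 15), leaving 18174 of 52325, and were normalized by TMM. EdgeR 4.0.16 (R 4.3.3) compared genotypes by the quasi-likelihood test with no other term and Benjamini-Hochberg adjustment over all tested genes. Standard errors were derived from the fold change and F statistic, and log2 CPM used a prior count of 2. Totals of 48791883 to 59819099 counts set the precision, and 3 counts were taken as the limit that a count of 0 allows, for counting error only. Symbols were found for 52220 identifiers, and identifiers without one held at most 0.00897% of a library. Positions are from GENCODE M21.

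The members and gene lists were chosen with earlier results of these data known. Named genes are the members, 7 genes around Apoe, up to 4 called genes of each pathway list filled to 3 by abundance, and the 6 genes most like Apoc1. Not all of them are reported here. Alternatives were DESeq2 1.42.0, limma 3.58.1 (voom with sample weights, and log2 of the deposited TPM plus 1 or 0.1), other normalizations and filters, a replicate block, other thresholds and each library left out.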

Additional observations from a re-analysis of the deposited data

Results flagged for a closer look

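Dixon's test at 95% looked for a library far from the other 3 of its genotype in log2 CPM. It passed its limit in 2 of 82 groups tested, where chance alone gives about 1 in 20, or 4.1 groups. Apoc1 in Thra1PV/+ library 3 lay at a log2 CPM of 2.33 against 2.55 to 2.56 in the others, and the gap was 0.942 of the range. Apoc1 was chosen from its values in these libraries, so its gap is a description. Abca2, a sterol transporter of nerve and endolysosome, lay in Thra1PV/+ library 1 at 5.34 against 4.85 to 4.90, and the gap was 0.916 of the range.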

How the results depend on the processing

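Of the 8 tested members other than Apoc1, 0 were called under any alternative tool, normalization, filter or left-out library, and 1 was counted when the threshold was an unadjusted p-value below 0.05. The log2 fold change of Apoc1 was 3.30 on TPM with a pseudocount of 1 and 4.03 to 4.25 with single libraries left out. The 180 calls over all genes became 791 with DESeq2, 311 with voom, 81 with at least 10 counts in every library and 81 to 167 with single libraries left out. The 2 calls among pathway genes became 3 with DESeq2, 0 with at least 10 counts in every library, 1 on TPM with a pseudocount of 1, 10 at an unadjusted p-value below 0.05, and 0 to 1 with single libraries left out. Replicate numbers are shared by the genotypes, but same-numbered libraries did not all deviate together (Pearson r over genes of 0.27, -0.44, 0.34 and -0.16 for numbers 1 to 4). No source used here says whether a number marks a shared litter or day. With a replicate block there were 82 calls over all genes and 0 among pathway genes, and Smpdl3a turned to 0.0019.

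Signs of small log2 fold changes turned as follows. Pltp was 0.034 with library size alone, Tomm40 was -0.044 with voom, and Smpdl3a was 0.32 with voom and 0.12 and 0.11 on TPM with pseudocounts of 0.1 and 1. Scp2 was 0.11 on TPM with either pseudocount. Apoo was 0.017 with DESeq2, 0.015 with its size factors, 0.015 with at least 1 count in any library, 0.025 with the upper quartile, 0.061 with library size alone, 0.093 and 0.089 on TPM with pseudocounts of 0.1 and 1, and 0.00068 with at least 10 counts in every library. With single libraries left out, log2 fold changes that turned ran from -1.09 to 0.15 for Apod, -0.54 to 0.0075 for Lcat, -0.52 to 0.26 for Pltp, -0.068 to 0.31 for Abca1 and -0.15 to 0.47 for Lrp1. They ran from -0.22 to 0.14 for Nectin2, -0.052 to 0.14 for Tomm40, -0.042 to 0.37 for Apoc4, -0.030 to 0.13 for Clptm1, -0.38 to 0.19 for Relb, -0.049 to 0.061 for Apoo and -0.066 to 0.17 for Lrp10. They ran from -0.0034 to 0.39 for Lsr, -0.0018 to 0.29 for Sdc4, -0.55 to 0.59 for Smpdl3a, -0.37 to 0.059 for Abca3, -0.067 to 0.18 for Npc2 and -8.42 to 0.38 for Lrp2. The causes were not tested. With 4 libraries a genotype, the standard errors of 0.27 to 0.78 for these members limit the differences that can be detected, and Apob was too sparse to test.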

Other observations

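Lrp2, the endocytic receptor megalin, falls outside the naming rule and was picked after its values were seen. It was at 4.55, 0.406, 0 and 0.0175 CPM in Thra1PV/+ libraries 1 to 4 and at 0.878, 199, 0.179 and 1.84 CPM in WT libraries 1 to 4. WT library 2 held nearly all of its counts. Its log2 fold change was -5.34 ± 2.50 (SE; edgeR adjusted p = 0.555), and without WT library 2 it was 0.38.

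Neutrophil markers, a list written for other cells the dissection could hold, summed to 160, 722, 295 and 74.7 CPM in Thra1PV/+ libraries 1 to 4 and to 33.1, 7.94, 12.4 and 127 CPM in WT libraries 1 to 4, with 0 of 6 tested markers called by edgeR, 4 at an unadjusted p-value below 0.05 and 2 called by DESeq2. The sum overlapped between genotypes through WT library 4. Blood markers summed to 21.1 to 186 CPM in Thra1PV/+ and 19.99 to 184 CPM in WT libraries, with a median log2 fold change of -1.73 over 7 tested markers, of which 0 were called by edgeR, 3 had an unadjusted p-value below 0.05 and 1 was called by DESeq2. Over all tested genes, 9.77% had an unadjusted p-value below 0.05 in edgeR, and DESeq2 called 2.64% of the genes it tested.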
